A study of Mus musculus with 8 samples.

Results

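The genes described here encode secreted factors that act on blood and lymphatic vessels, with 1 receptor: the VEGF family ligands Vegfa, Vegfb, Vegfc and Pgf, the VEGF receptor Flt1, endothelin-1 (Edn1), the angiopoietins Angpt1 and Angpt2, and the angiopoietin-like factors Angptl2 and Angptl4. They were chosen by name as a group of vascular genes, and each was read from the probe set whose annotation gives that gene symbol alone. Of the 10 genes, 9 were measured in this way, each by 1 probe set, out of 19937 genes in all, and Angptl2 was not measured. RNA came from NMuMG cells, an untransformed mouse mammary gland epithelial line that undergoes EMT, the change from epithelial to mesenchymal character, when TGFβ is added. There were 8 Affymetrix arrays in 4 groups of 2: cells received either a control siRNA, written siControl, or siRNA against the zinc finger transcription factor Klf4, written siKlf4, and were kept without TGFβ or treated with TGFβ at 2 ng/ml for 2 days. All groups were thus transfected cells of 1 cell line. The comparisons ask which of these genes change when Klf4 is depleted, and whether that change depends on TGFβ. Nothing in the labels tells whether replicates are independent transfections, so each p-value reflects the spread of the deposited arrays alone, and that spread may be technical.

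VEGF ligands signal through the receptor tyrosine kinases Flt1, Kdr and Flt4, with the neuropilins Nrp1 and Nrp2 as co-receptors. Vegfa is the main driver of blood vessel sprouting and is induced by low oxygen, whereas Vegfc acts chiefly on lymphatic vessels through Flt4, and Vegfb and Pgf bind Flt1. Endothelin-1 is a vasoconstrictor peptide cut from its precursor by furin and then by endothelin-converting enzymes, and it acts through Ednra and Ednrb. Angpt1 activates the receptor Tek and Angpt2 mostly opposes it. Epithelial cells secrete several of these factors, while most of the receptors are typical of endothelium.

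Values are log2 array values, so that a difference of 1 is a doubling. They were compared with limma, and "adjusted p" means its p-value after Benjamini-Hochberg adjustment over all 19937 genes. Where that value is under 0.05, the gene is said to be higher or lower. The value of a probe set depends on its probes, so levels are compared between groups and not between genes. In bulk RNA, more cells that make a transcript and more transcript per cell cannot be told apart.

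The array medians lay between 4.902 and 5.002, and the arrays of a group correlated with an r from 0.992 to 0.995 across probe sets. Klf4, the target of the siRNA, was 8.60 and 8.43 on the arrays labelled siControl, 8.03 and 7.91 on those labelled siKlf4, 7.46 and 7.46 on those labelled siControl with TGFβ, and 7.43 and 7.24 on those labelled siKlf4 with TGFβ. The siKlf4 label thus went with a Klf4 value lower by a log2 difference of -0.54 (SE 0.0987, adjusted p = 0.00369) without TGFβ and by -0.13 (adjusted p = 0.444) with TGFβ. The TGFβ label went with -1.05 (adjusted p = 3.6e-04) in siControl and with -0.63 (adjusted p = 0.00295) in siKlf4. Of 9 measured genes known to be induced by TGFβ (Smad7, Skil, Tgfbi, Pmepa1, Ltbp1, Itgb6, Cdh2, Fn1 and Ccn2), a list drawn up after values were seen, 8 were higher and 0 lower with the siKlf4 label both without and with TGFβ. With the TGFβ label, 1 was higher and 3 were lower in siControl, and 3 were higher and 1 lower in siKlf4. The groups are written as the labels name them throughout. Were the labels of the siKlf4 arrays without TGFβ and the siControl arrays with TGFβ exchanged, the siKlf4 and TGFβ comparisons would trade places. The difference of siKlf4 without TGFβ from siControl with TGFβ would change sign. Between those groups, Klf4 was higher by 0.51 on the arrays labelled siKlf4 (adjusted p = 0.00509). The difference of siKlf4 with TGFβ from siControl without TGFβ, and the interaction, would keep their values. Those values are given for the 6 genes called in any comparison for that reason. For the genes of the pathway and marker lists, the difference of siKlf4 with TGFβ from siControl without TGFβ was not tested. Their siKlf4 and TGFβ differences are therefore differences between labelled groups only.

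Of the 9 measured genes, Vegfa, Vegfc, Edn1 and Angptl4 were higher and Angpt2 was lower with siKlf4 without TGFβ. These are 4 higher and 1 lower, where 9.98% of all genes tested were higher and 9.71% lower. With TGFβ, 3 were higher (Vegfa, Vegfc and Edn1) and 1 was lower (Vegfb), beside 12.3% and 11.9% of all genes. TGFβ went with 1 higher and 1 lower gene in siControl (5.81% and 6.65% of all genes) and with 3 higher and 1 lower in siKlf4 (6.01% and 6.87%). The interaction called 1 gene higher and 0 lower, beside 0.547% and 0.978%. Between siControl without TGFβ and siKlf4 with TGFβ, 3 genes were higher and 2 lower, beside 14.7% and 15.3%. Between siKlf4 without TGFβ and siControl with TGFβ, 3 were higher in siKlf4 and 0 were lower, beside 11.5% and 10.5%. The median difference over the 9 genes was 0.04 with siKlf4 without TGFβ and 0.12 with TGFβ, where the medians of all genes were 0.00 and -0.03. The comparisons share arrays, and their counts are not independent of each other. The genes were chosen with earlier results of these data known, so the counts do not test the group against all genes.

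The promoters of Edn1, Vegfa and Vegfc, the 3 genes that were higher with siKlf4 both without and with TGFβ, are shown here, since Klf4 is a DNA-binding factor of the family that recognises CACCC boxes. Each is the 250 bases before the annotated start in RefSeq on GRCm38.p6, read 5′ to 3′ on the strand of the gene, with CACCC or its reverse complement GGGTG in capitals. Edn1 lies on the plus strand (chr13:42301226-42301475), Vegfa on the minus strand (chr17:46032378-46032627, the first of 2 listed starts) and Vegfc on the plus strand (chr8:54077282-54077531).
Edn1: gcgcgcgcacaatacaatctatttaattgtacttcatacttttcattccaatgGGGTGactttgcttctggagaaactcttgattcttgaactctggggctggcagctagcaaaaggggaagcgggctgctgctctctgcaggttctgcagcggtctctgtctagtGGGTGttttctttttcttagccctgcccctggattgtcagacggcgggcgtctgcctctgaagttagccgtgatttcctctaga
Vegfa: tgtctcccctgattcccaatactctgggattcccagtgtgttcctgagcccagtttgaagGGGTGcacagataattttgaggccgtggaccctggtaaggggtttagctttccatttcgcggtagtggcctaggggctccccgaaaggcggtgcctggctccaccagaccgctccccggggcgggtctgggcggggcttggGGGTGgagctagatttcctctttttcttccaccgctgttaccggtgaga
Vegfc: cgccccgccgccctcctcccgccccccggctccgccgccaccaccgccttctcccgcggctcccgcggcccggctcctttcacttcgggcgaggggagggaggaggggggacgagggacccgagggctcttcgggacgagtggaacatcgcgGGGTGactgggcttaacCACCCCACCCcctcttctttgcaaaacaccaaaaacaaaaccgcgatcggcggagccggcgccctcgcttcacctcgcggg

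The Edn1 and Vegfa windows each hold 2 CACCC boxes and the Vegfc window holds 3, with 2 of them side by side. Such a box, searched on both strands, occurs in 52% of the 32851 promoter windows of the same length, and in 8 of the 9 listed starts of the 7 genes of the group with an entry, which are Vegfa, Vegfb, Vegfc, Pgf, Flt1, Edn1 and Angptl2. The Vegfb window, of a gene that was lower, holds 2. The SMAD box CAGAC, found in 42.2% of all windows, occurs 2 times each in the Edn1 and Vegfa windows and 0 times in that of Vegfc. The core of the hypoxia response element (ACGTG or GCGTG, 38.6% of all windows) and the AP-1 site (TGACTCA or TGAGTCA, 4.46%) occur in none of the 3 sequences shown. The window at the second Vegfa start (chr17:46025164-46025413) holds 2 of the hypoxia response element cores. That start lies downstream of the first on the minus strand, so its window lies inside the gene as read from the first start. The windows differ in composition: Vegfc has 71.6% G and C with 30 CpG dinucleotides, Vegfa 59.2% with 11 and Edn1 50.4% with 9, beside medians of 52.4% and 6 over all windows. The shares of all windows were not matched for composition, so whether the group holds more CACCC boxes than windows of like composition was not tested. These are matches of letters, and no binding was measured here.

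Among the VEGF ligands, Vegfa and Vegfc rose with siKlf4, Vegfb fell with siKlf4 when TGFβ was present, and Pgf passed no test. Vegfa was 8.65 and 8.63 in siControl, 8.95 and 9.07 in siKlf4, 8.99 and 9.02 with TGFβ in siControl, and 9.55 and 9.63 with TGFβ in siKlf4. The siKlf4 arrays lay above the siControl arrays in either condition without overlap, and the arrays with both siKlf4 and TGFβ lay above all others. Vegfa was 1.29-fold higher with siKlf4 without TGFβ (log2 difference 0.37, SE 0.0814, adjusted p = 0.0108) and 1.51-fold higher with TGFβ (0.59, adjusted p = 5.8e-04). TGFβ went with a log2 difference of 0.36 in siControl (adjusted p = 0.0208) and 0.58 in siKlf4 (adjusted p = 0.00167). The interaction, which is the siKlf4 difference with TGFβ minus that without, was 0.22 with a 95% interval from -0.04 to 0.48 (adjusted p = 0.506). From siControl without TGFβ to siKlf4 with TGFβ, Vegfa rose 1.93-fold (adjusted p = 2.0e-05). The order of its levels was siControl, then siControl with TGFβ and siKlf4, which did not differ beyond their spread (0.01, adjusted p = 0.959), then siKlf4 with TGFβ. The smaller differences rest on few arrays: the one with siKlf4 without TGFβ had an adjusted p of 0.0652 when siKlf4 replicate 2 was left out and 0.0548 on its own 4 arrays. That of TGFβ in siControl was lost when any of its 4 arrays was left out, with an adjusted p from 0.0693 to 0.132.

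Vegfc had the largest log2 difference of the 9 genes in both siKlf4 comparisons. It was 4.89 and 5.25 in siControl, 6.28 and 6.28 in siKlf4, 5.30 and 5.39 with TGFβ in siControl, and 7.09 and 7.37 with TGFβ in siKlf4. All siKlf4 arrays lay above all siControl arrays. The log2 difference was 1.21 without TGFβ (SE 0.132, 2.31-fold, adjusted p = 1.9e-04) and 1.89 with TGFβ (3.70-fold, adjusted p = 8.5e-06). TGFβ added 0.95 in siKlf4 (adjusted p = 0.00155), whereas in siControl the difference was 0.28 (adjusted p = 0.244). That these TGFβ differences are unequal did not pass, with an interaction of 0.68 and a 95% interval from 0.26 to 1.10 before adjustment (adjusted p = 0.143). From siControl without TGFβ to siKlf4 with TGFβ, Vegfc rose 4.47-fold (adjusted p = 2.5e-06). In the order of levels, siControl and siControl with TGFβ were the only neighbours that did not differ beyond their spread. With ordinary variances, the TGFβ difference in siKlf4 had an adjusted p of 0.0508.

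Vegfb went the other way. It was 8.68 and 8.74 in siControl, 8.46 and 8.58 in siKlf4, 8.63 and 8.73 with TGFβ in siControl, and 8.03 and 8.16 with TGFβ in siKlf4, so that the last group lay below all others. With TGFβ, Vegfb was 1.50-fold lower with siKlf4 (log2 difference -0.59, SE 0.0892, adjusted p = 0.00104), and in siKlf4 it was 1.35-fold lower with TGFβ (-0.43, adjusted p = 0.0128). Without TGFβ the siKlf4 difference was -0.19 (95% interval -0.39 to 0.01, adjusted p = 0.197), in siControl the TGFβ difference was -0.03 (adjusted p = 0.875), and the interaction was -0.40 (adjusted p = 0.218). From siControl without TGFβ to siKlf4 with TGFβ, it was 1.54-fold lower (adjusted p = 5.5e-04). In the order of levels, the other 3 groups did not differ between neighbours among themselves. The TGFβ difference in siKlf4 was lost without siKlf4 replicate 2 (adjusted p = 0.0781), without replicate 1 of siKlf4 with TGFβ (adjusted p = 0.116), and with ordinary variances (adjusted p = 0.0555).

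Pgf, placental growth factor, lay between 4.03 and 4.34 on all 8 arrays, and Flt1, the receptor that it shares with Vegfa and Vegfb, between 6.58 and 6.79. The Pgf groups overlapped in every comparison. Its siKlf4 differences were 0.03 without TGFβ (95% interval -0.26 to 0.32, adjusted p = 0.935) and 0.12 with TGFβ (-0.17 to 0.41, adjusted p = 0.608). For Flt1 they were -0.08 (-0.27 to 0.12, adjusted p = 0.651) and 0.01 (-0.18 to 0.21, adjusted p = 0.946). No comparison called either gene. The mean of Pgf lay in the lowest 30% of all genes, where array values have little range left.

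Edn1 had the clearest dependence on the combination of siKlf4 and TGFβ. It was 7.29 and 7.21 in siControl, 7.98 and 7.99 in siKlf4, 7.01 and 7.06 with TGFβ in siControl, and 8.64 and 8.83 with TGFβ in siKlf4. All siKlf4 arrays lay above all siControl arrays, and the arrays with TGFβ were the lowest of the siControl arrays and the highest of the siKlf4 arrays. Edn1 was 1.67-fold higher with siKlf4 without TGFβ (log2 difference 0.74, SE 0.0880, adjusted p = 3.2e-04) and 3.25-fold higher with TGFβ (1.70, adjusted p = 1.7e-06). In siKlf4, TGFβ went with 0.75 (adjusted p = 6.4e-04), and in siControl with -0.21 (adjusted p = 0.175). The interaction was 0.96 (SE 0.124, 95% interval 0.68 to 1.24, adjusted p = 0.0122), so the siKlf4 difference was larger with TGFβ than without. Edn1 was the 1 gene of the group for which this test passed, while 5 of the 9 had an unadjusted p under 0.05. From siControl without TGFβ to siKlf4 with TGFβ, it was 2.80-fold higher (adjusted p = 2.15e-06). In the order of levels, the neighbours that did not differ were siControl with and without TGFβ. The interaction kept its size but not its call without replicate 1 (0.94, adjusted p = 0.0666) or 2 (0.99, adjusted p = 0.0648) of siControl with TGFβ, without replicate 2 of siKlf4 with TGFβ (0.87, adjusted p = 0.0683), and with ordinary variances (adjusted p = 0.109).

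**Figure D1:**
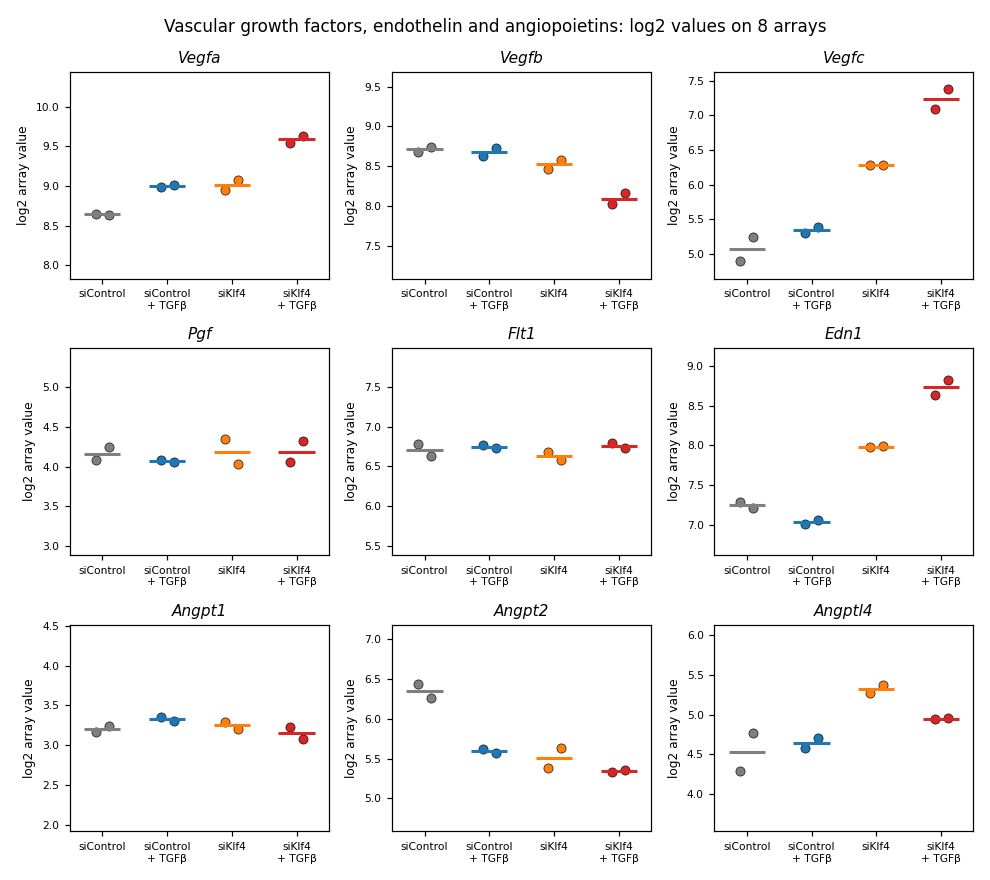
Log2 array values of the 9 measured genes (y axes, each with its own range of at least 2.6 log2 units) in the 4 labelled groups (x axes); each point is 1 array and each bar the mean of the 2 arrays of a group. Vegfa, Vegfc and Edn1 were highest and Vegfb was lowest in siKlf4 with TGFβ, Angpt2 was highest in siControl (6.43 and 6.27), and Pgf, Flt1 and Angpt1 stayed within narrow ranges.

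Of the angiopoietins, Angpt2 was lower in each group that had siKlf4, TGFβ or both, and Angpt1 passed no test. Angpt2 was 6.43 and 6.27 in siControl, 5.38 and 5.63 in siKlf4, 5.62 and 5.57 with TGFβ in siControl, and 5.33 and 5.36 with TGFβ in siKlf4. The siControl arrays lay above the other 6, whose values spanned 5.33 to 5.63. Angpt2 was 1.80-fold lower with siKlf4 without TGFβ (log2 difference -0.85, SE 0.103, adjusted p = 3.7e-04) and 1.69-fold lower with TGFβ in siControl (-0.75, adjusted p = 0.00187). With both it was 2.01-fold lower than in siControl (adjusted p = 6.3e-05). With TGFβ already present the siKlf4 difference was -0.25 (95% interval -0.49 to -0.02 before adjustment, adjusted p = 0.123). In siKlf4 the TGFβ difference was -0.16 (adjusted p = 0.439). The interaction was 0.59 (adjusted p = 0.0994). The 3 lower groups did not differ between neighbours among themselves in the order of levels, although on its own 4 arrays the siKlf4 difference with TGFβ had an adjusted p of 0.0337. Angpt1, the activating ligand, lay between 3.07 and 3.36 on all arrays, with siKlf4 differences of 0.04 (95% interval -0.16 to 0.24, adjusted p = 0.830) and -0.18 (-0.38 to 0.02, adjusted p = 0.202). Its mean was in the lowest 30% of genes.

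Angptl4 is an inhibitor of lipoprotein lipase that is induced by PPAR factors and by low oxygen. It was 4.28 and 4.77 in siControl, 5.27 and 5.38 in siKlf4, 4.58 and 4.71 with TGFβ in siControl, and 4.95 and 4.95 with TGFβ in siKlf4. All siKlf4 arrays lay above all siControl arrays, but the siControl arrays without TGFβ were farther apart than those of any other group. Angptl4 was 1.74-fold higher with siKlf4 without TGFβ (log2 difference 0.80, SE 0.142, adjusted p = 0.00331), and with TGFβ the difference was 0.31 (95% interval -0.01 to 0.63, adjusted p = 0.173). TGFβ went with 0.12 in siControl (adjusted p = 0.704) and with -0.38 in siKlf4 (adjusted p = 0.136), and the interaction was -0.49 (adjusted p = 0.367). From siControl without TGFβ to siKlf4 with TGFβ the difference was 0.42 (adjusted p = 0.0519). No neighbours in its order of levels differed beyond their spread. The call without TGFβ was lost with ordinary variances (adjusted p = 0.0674). The siKlf4 difference with TGFβ passed on its own 4 arrays (adjusted p = 0.0233), after cyclic loess normalization (0.37, adjusted p = 0.0428) and without either siControl array (adjusted p = 0.0298). The TGFβ difference in siKlf4 passed on its own 4 arrays (adjusted p = 0.0387) and without either siControl array (adjusted p = 0.0219).

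**Figure D2:**
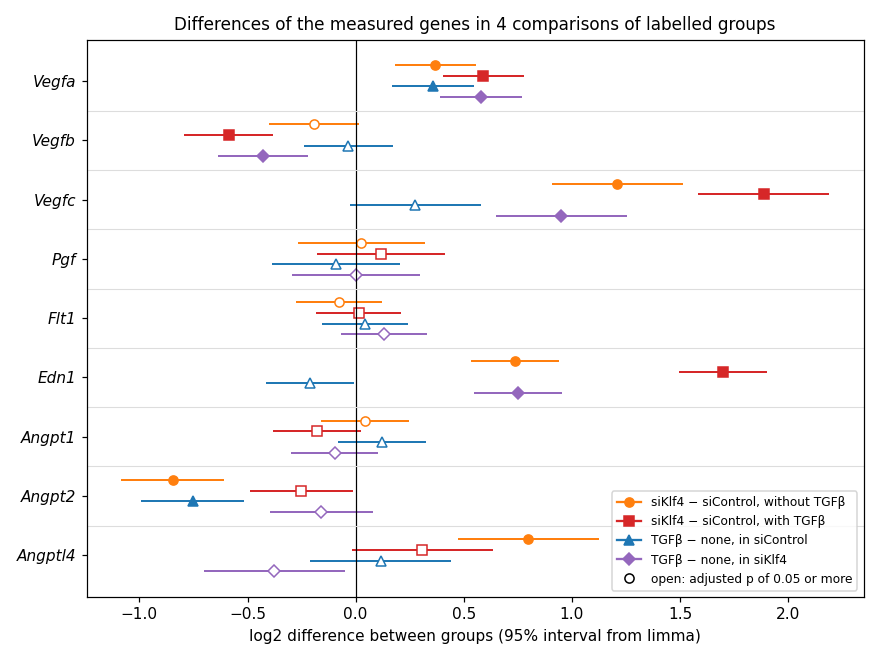
Log2 differences of the 9 measured genes (x axis) in the siKlf4 comparisons without and with TGFβ and the TGFβ comparisons in siControl and siKlf4; lines are 95% intervals from limma before adjustment, and open symbols have an adjusted p of 0.05 or more. Vegfc and Edn1 lie farthest to the right, at 1.89 and 1.70 with siKlf4 and TGFβ, and the Angpt2 differences without TGFβ and in siControl lie farthest to the left, at -0.85 and -0.75.

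Of 23 further genes of the VEGF and angiopoietin system, 22 were measured, and the co-receptors and matrix or integrin partners, not the receptor kinases, were among those that passed. With siKlf4, 10 were higher and 1 was lower without TGFβ (median difference 0.22, against 0.00 for all genes), and 9 were higher and 1 lower with TGFβ (0.07, against -0.03). Of all genes, 9.98% were higher and 9.71% lower without TGFβ, and 12.3% and 11.9% with TGFβ. Nrp1 was 8.19 and 7.91 in siControl, 9.17 and 8.90 in siKlf4, 8.41 and 8.13 with TGFβ in siControl, and 10.06 and 9.98 with TGFβ in siKlf4. Like Vegfa, Nrp1 was thus highest where siKlf4 and TGFβ were combined, with siKlf4 differences of 0.99 (adjusted p = 8.3e-04) and 1.75 (adjusted p = 1.7e-05). Nrp2 rose by 1.63 (adjusted p = 2.1e-05) and 1.43 (adjusted p = 2.7e-05). The larger changes were those of the α5 and β3 integrin subunits, Itga5 (3.42 and 3.07) and Itgb3 (2.46 and 2.37), of the semaphorin receptor Plxnd1 (2.26 and 1.57), and of Sema3c, a secreted semaphorin, which fell (-2.17 and -2.27). Under TGFβ, 5 of the 22 were higher and 1 lower in siControl (5.81% and 6.65% of all genes), and 4 higher and 1 lower in siKlf4 (6.01% and 6.87%), with Nrp1 higher in siKlf4 (0.98, adjusted p = 0.00166).

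The receptor kinases did not pass, and the means of Kdr, Flt4 and Tek lay in the lowest 30% of genes, where array values have little range left. Kdr lay between 3.95 and 4.24 on all arrays, Flt4 between 3.86 and 4.25, Tek between 3.93 and 4.31, and Tie1 between 4.36 and 4.72. Their siKlf4 differences without TGFβ ran from -0.01 (Tek) to 0.10 (Tie1), each with an adjusted p of at least 0.672. With TGFβ that of Tek was -0.26 (adjusted p = 0.133, and 0.0446 on its own 4 arrays), and those of the other 3 ran from -0.05 to 0.07. Endothelial markers, which include Tek, Tie1 and Kdr, had 0 of 10 called by limma in any of the 5 comparisons, with 0 to 2 at an unadjusted p under 0.05 and 0 with ordinary variances. Among the other settings, Cdh5, whose difference with siKlf4 and TGFβ was 0.32, was called with the replicate block (adjusted p = 0.0287), cyclic loess normalization (0.0458), the filter on low values (0.0458) and without replicate 1 of siControl with TGFβ (0.0255). The mean value of the 10 markers lay between 4.24 and 4.44 on all arrays, and 5 of the 10 were in the lowest 30% of genes.

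Ece1 and Furin, which process endothelin, were higher with the siKlf4 label, as Edn1 was. Of 9 endothelin system genes 8 were measured, and Ednra was not. With siKlf4, 2 were higher and 1 lower without TGFβ, and 3 were higher and 1 lower with TGFβ, beside the same shares of all genes (9.98% and 9.71%, then 12.3% and 11.9%). Ece1, the main endothelin-converting enzyme, was 7.66 and 7.73 in siControl, 8.79 and 8.77 in siKlf4, 7.78 and 7.69 with TGFβ in siControl, and 9.17 and 9.22 with TGFβ in siKlf4. Its siKlf4 differences were 1.09 (adjusted p = 1.8e-05) and 1.46 (adjusted p = 2.1e-06), and TGFβ added 0.41 in siKlf4 (adjusted p = 0.00840). Furin, the protease that makes the first cut, rose by 0.92 (adjusted p = 4.1e-05) and 1.06 (adjusted p = 1.1e-05). Mme, neprilysin, which degrades endothelin, fell by 0.31 (adjusted p = 0.0379, lost in 6 of the other settings and without 7 of the 8 arrays in turn) and by 0.48 (adjusted p = 0.00333). Its values were 3.75 to 4.36, with a mean in the lowest 30% of genes. Ece2 was higher with TGFβ only (0.47, adjusted p = 0.00917), and with the mean of its probe sets the difference was 0.21 (adjusted p = 0.170). The receptor Ednrb lay between 4.10 and 4.62, with differences of -0.25 (adjusted p = 0.221) and -0.18 (adjusted p = 0.389).

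**Figure D3:**
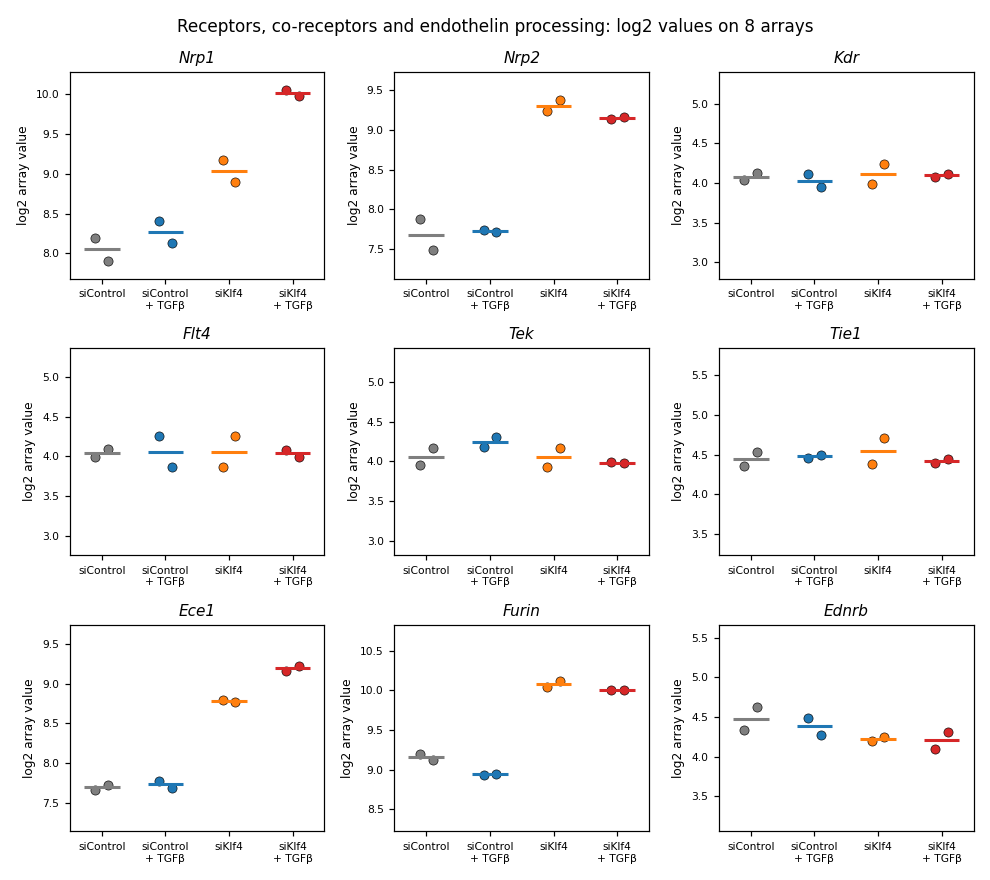
Log2 array values of 9 receptor, co-receptor and endothelin processing genes (y axes) in the 4 labelled groups (x axes); points are arrays and bars are means of 2 arrays. Nrp1, Nrp2, Ece1 and Furin were higher on the siKlf4 arrays, and the receptors Kdr, Flt4, Tek, Tie1 and Ednrb stayed between 3.86 and 4.72 on all arrays.

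Vegfa and Angptl4 are known targets of the oxygen-sensing pathway. While Vegfa rose with siKlf4, most called genes of that pathway were lower without TGFβ, and with TGFβ they went both ways equally. Of the 20 regulators and response genes listed for the pathway, all of them measured, 1 was higher and 8 were lower with siKlf4 without TGFβ (median difference -0.16). With TGFβ, 5 were higher and 5 lower (-0.14). The shares of all genes were 9.98% higher and 9.71% lower in the former and 12.3% and 11.9% in the latter. Under TGFβ in siControl, 1 was higher and 12 were lower (median -0.39), beside 5.81% and 6.65% of all genes. Bnip3, a mitophagy receptor, fell by 2.56 with siKlf4 without TGFβ (adjusted p = 1.2e-06) and by 1.50 with TGFβ (adjusted p = 1.0e-05). Egln3, a prolyl hydroxylase that marks HIF factors for decay, fell by 2.54 (adjusted p = 6.9e-07) and 2.01 (adjusted p = 1.1e-06). Pdk1, a kinase that inhibits pyruvate dehydrogenase, fell by 1.74 and 1.44. Ankrd37 fell by 1.54 and by 0.51, the latter with an adjusted p of 0.0992 with ordinary variances. Ddit4, an inhibitor of mTORC1, rose with siKlf4 as Vegfa did. It was 8.48 and 8.43 in siControl, 9.35 and 9.38 in siKlf4, 7.47 and 7.61 with TGFβ in siControl, and 9.45 and 9.75 with TGFβ in siKlf4. Its siKlf4 differences were 0.91 (adjusted p = 3.1e-04) and 2.06 (adjusted p = 1.9e-06). Of the HIF factors, Hif1a lay between 9.53 and 10.01 with siKlf4 differences of -0.13 (adjusted p = 0.440) and -0.15 (adjusted p = 0.329), and Epas1 fell by 0.71 (adjusted p = 4.3e-04) and 0.97 (adjusted p = 4.5e-05).

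**Figure D4:**
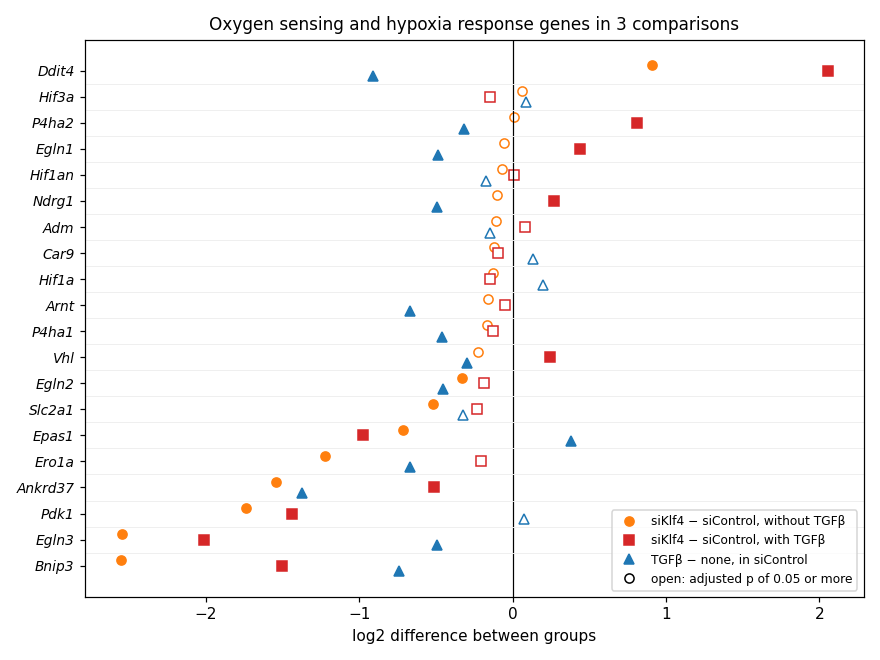
Log2 differences (x axis) of 20 oxygen sensing and hypoxia response genes (y axis, ordered by the siKlf4 difference without TGFβ) in the siKlf4 comparisons and in TGFβ against none in siControl; open symbols have an adjusted p of 0.05 or more. Bnip3 and Egln3 lie at -2.56 and -2.54 with siKlf4 without TGFβ, and Ddit4 is the 1 gene called higher in both siKlf4 comparisons.

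Of 11 PPAR and lipid genes that share regulation with Angptl4, 9 were measured, of which 3 were higher and 1 lower with siKlf4 without TGFβ and 2 higher and 1 lower with TGFβ, where 9.98% and 9.71% and then 12.3% and 11.9% of all genes were called. Plin2, which coats lipid droplets, was 9.79 and 9.85 in siControl, 11.50 and 11.54 in siKlf4, 9.76 and 9.74 with TGFβ in siControl, and 11.53 and 11.58 with TGFβ in siKlf4. It rose by 1.70 (adjusted p = 1.4e-06) and 1.80 (adjusted p = 7.0e-07). Cpt1a, the carnitine transferase of fatty acid oxidation, fell by 0.91 (adjusted p = 1.5e-04) and by 0.42 (adjusted p = 0.0107, and 0.0522 with ordinary variances). Ppard was higher by 0.47 (adjusted p = 0.0031) and 0.39 (adjusted p = 0.0072), and Rxra by 0.41 without TGFβ (adjusted p = 0.015, and 0.0723 with ordinary variances). The means of 4 of the 9, Pparg, Pdk4, Lpl and Fabp4, lay in the lowest 30% of genes, where array values have little range left.

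Of the epithelial markers, Krt8 lay between 13.04 and 13.42 over the 8 arrays, Krt18 between 12.18 and 12.85 and Cdh1 between 10.15 and 10.89, while Cldn3 lay between 5.83 and 6.37, Cldn7 between 4.10 and 4.78, and Epcam, in the lowest 30% of genes, between 3.88 and 4.09. These levels alone do not test the cell type. Of 10 epithelial markers, 4 were higher and 1 lower with siKlf4 without TGFβ, and 5 higher and 1 lower with TGFβ. Their mean value ran from 8.50 to 8.61 on the siControl arrays and from 8.90 to 9.08 on the siKlf4 arrays. Cldn4 had the widest range of group means of the 10, with 5.71 in siControl and 8.66 in siKlf4, and 5.38 and 9.03 with TGFβ. Krt19 went the other way, with 12.62 and 11.63, and 12.47 and 11.42 with TGFβ. Cdh1 had group means of 10.36 in siControl and 10.18 in siKlf4, and 10.62 and 10.84 with TGFβ. Its means were higher with the TGFβ label under either siRNA, although 0 of the 10 markers were called with TGFβ in siControl. The mean of the 10 thus does not stand for each marker. Of 8 fibroblast markers, 2 were higher and 0 lower without TGFβ, and 1 was higher and 1 lower with TGFβ, and of 6 macrophage and blood markers 1 and 2 were higher and 0 lower. Most fibroblast, macrophage and blood markers were thus not called, and the shares of all genes called in these comparisons were 9.98% higher and 9.71% lower without TGFβ and 12.3% and 11.9% with TGFβ. The part of the markers that changed in the results for Vegfa, Vegfc and Edn1 was not tested.

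Over the 8 arrays, the genes with the pattern most like that of Vegfa, by Pearson correlation among the 9968 genes in the upper range of mean values, were Nlk (r = 0.999), Zfp113 (0.994) and Cdc42bpa (0.994). For Edn1 they were Apbb2 (0.995), Dusp10 (0.994) and Atp6ap1 (0.994). With 4 groups behind the 8 arrays, these values describe likeness over few independent points.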

How the data were processed

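RNA of NMuMG cells was measured on 8 arrays, 2 for each of 4 labelled groups. RMA (Robust Multi-Array) normalization was done by the authors. The values as deposited are log2 values, 1 per probe set and array, a scale read from their range. The submitters' processing notes name oligo 1.14.0, and the background settings and the annotation are not given in the sources used here. Signal over background is not given either, so the number of arrays limits the precision. Of 34760 probe sets, 21640 have 1 gene symbol in the platform annotation, 1321 several and 11799 none listed. The probe set with the highest mean was kept for each of 19937 genes. Ero1l and Ctgf were matched as Ero1a and Ccn2.

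Groups were compared in R 4.3.3 with limma 3.58.1 (lmFit on all 8 arrays with a mean for each group, then eBayes, Benjamini-Hochberg adjustment over all genes and a threshold of 0.05). The residual degrees of freedom were 4 and the prior ones 4.93. Tested were the difference of siKlf4 from siControl at each TGFβ state, the difference made by TGFβ within each siRNA, their interaction, and 2 contrasts that complete the order of levels. The fit was tested on simulated data. Alternatives were a block for the replicate number, only the 4 arrays compared, ordinary variances as in the study's one-way analysis of variance, eBayes with trend and robust options, quantile and cyclic loess normalization, a filter on the lowest 30% of genes, averaged probe sets, a threshold of 0.01, and each array left out in turn.

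The genes, pathway lists and marker lists were chosen with earlier results of these data known, and the list of TGFβ-induced genes after its values were seen. Named are all measured genes of the group, Klf4, the receptors, the HIF factors, up to 4 called genes of each pathway list and siKlf4 contrast, and the 3 genes most like Vegfa and Edn1. Promoters are RefSeq's on GRCm38.p6, and only bases before the start were used. The ChIP-Seq of the study was not analysed here.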

Additional observations from a re-analysis of the deposited data

Results flagged for a closer look

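For 1 gene of the group, Edn1, the siKlf4 difference with TGFβ differed from that without by a limma interaction test, by 0.96 on the log2 scale (adjusted p = 0.0122). The same test passed for genes of the pathway and marker lists. Among the oxygen-sensing genes the interaction was 1.15 for Ddit4 (adjusted p = 0.0128), 1.05 for Bnip3 (0.0161), 1.03 for Ankrd37 (0.0264), 1.01 for Ero1a (0.00611) and 0.80 for P4ha2 (0.0168). It was -0.69 for the semaphorin receptor Plxnd1 (adjusted p = 0.0307), 1.03 for the epithelial factor Elf3 (0.0396) and 0.62 for the macrophage marker Csf1r (0.0307). Of the TGFβ-induced genes, Ltbp1 differed by 1.01 (adjusted p = 0.0108) and Itgb6 by -0.93 (adjusted p = 0.00788). With ordinary variances the interaction called 0 genes, so none of these passed there.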

How the results depend on the processing

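Of 45 results, the 9 measured genes in 5 comparisons, 36 kept their side of the threshold under all 9 other settings that gave a value and all 8 arrays left out in turn. The sign of 8 results changed in some setting, including Pgf with siKlf4 without TGFβ and Angptl4 with TGFβ in siControl, and 0 of these were called in any setting. At a threshold of 0.01, Vegfa with siKlf4 without TGFβ (adjusted p = 0.0108) and with TGFβ in siControl (0.0208), Vegfb with TGFβ in siKlf4 (0.0128) and the Edn1 interaction (0.0122) were not called, and the other changes of call are given beside the genes. With each array left out, 4 to 5 of the 9 genes were called with siKlf4 without TGFβ (3160 to 3519 of all genes), 4 to 5 with TGFβ (3308 to 4994), 1 to 2 with TGFβ in siControl (1090 to 2545), 3 to 5 with TGFβ in siKlf4 (1274 to 2700), and 0 to 1 by the interaction (28 to 214). With ordinary variances, TGFβ in siControl called 1489 genes in place of 2484, TGFβ in siKlf4 called 2 of the 9 genes in place of 4 and 1702 genes in place of 2569, and the interaction called 0 of the 9 and 0 genes in place of 1 and 304. Trend and robust options gave 760 interaction calls. At a threshold of 0.01, TGFβ in siControl called 1 of the 9 genes and 1207 genes, TGFβ in siKlf4 called 1402 genes, and the interaction called 0 of the 9 and 37 genes. The causes were not tested. The replicate numbers were not taken to pair the samples: of the 6 correlations of replicate differences between groups, that of siControl with siKlf4 without TGFβ was 0.38 and the others ran from -0.05 to 0.04. With the replicate block, 5, 4, 2, 4 and 1 of the 9 genes were called in the 5 comparisons and 4031, 4950, 2560, 2620 and 326 genes in all. It changed no call of the 9 genes. The filter left Pgf and Angpt1 out, so they have no value under it.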
